A study of Mus musculus with 6 samples.

Results

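The genes described here are 9 genes of the bone morphogenetic protein (BMP) pathway, chosen by name: the ligands Bmp2, Bmp4, Bmp5 and Bmp7, the secreted antagonists Grem1 and Chrdl1, and the target genes Id1, Id2 and Id3. All 9 were found among the 48440 genes of the deposited tables, each as a single entry. RNA was sequenced from adenoma polyps, of the small intestine by the study's text, of 3 ApcMin, WT samples (libraries QC4, QC5 and QC6) and 3 ApcMin, PCdel samples (libraries QC3, QC8 and QC10), and values by library are given in this order throughout. Both groups carry the ApcMin allele and, by the methods, 1 copy of the Rosa26-iDTA allele, on a C57BL/6 background and at an age above 42 days. The PCdel mice carry in addition Defa4-Cre, a Cre knock-in active in Paneth cells (PCs), in which recombination switches on the diphtheria toxin A subunit, so that Defa4-expressing cells die. The sources do not say how many mice or adenomas stand behind each library, so the p-values measure the spread between these libraries, which may be partly technical.

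BMPs are secreted dimers that bind type I and type II serine/threonine kinase receptors, which phosphorylate SMAD1, SMAD5 and SMAD9. With SMAD4 these enter the nucleus and induce the ID genes, whose products are helix-loop-helix proteins without a DNA-binding region that sequester E proteins. In the normal gut, BMP activity is low at the crypt base, where stromal cells secrete antagonists, and high toward the villus, where subepithelial telocytes secrete ligands, and it restrains stem cell self-renewal. Loss of BMP signaling causes juvenile polyposis, and ectopic Grem1 in the epithelium causes hereditary mixed polyposis.

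Bmp2, Bmp5, Id2 and Chrdl1 were higher in each of the 3 PCdel libraries than in each of the 3 WT libraries, with mean levels of 120.6% (Id2) to 440.1% (Chrdl1) of the WT mean. Levels are FPKM, which are fragment numbers divided by transcript length and by the size of the library. In Bmp4, Bmp7, Grem1, Id1 and Id3 the PCdel mean was also above the WT mean, at 109.9% to 136.4% of it, but the groups overlapped. After Benjamini-Hochberg adjustment over the 14240 genes that averaged 1 FPKM or more, limma called 0 of the 8 genes tested at a threshold of 0.05 (adjusted p between 0.979 and 1.0). It called 0.014% of all genes tested, and an unadjusted p under 0.05 was reached by Bmp2, Bmp5 and Id2 against 3.38% of all genes tested (2.7% with a higher PCdel level). The groups were apart, with no PCdel library inside the WT range or the reverse, in 3 of the 8 genes tested, against 7.54% of all genes tested. Those 3 were higher, as were 6% of all genes tested. The count was 3 also with TPM, quantile normalization and median centring, where the groups were apart in 9.96%, 7.09% and 7.65% of all genes tested. Chrdl1, at a mean of 0.687 FPKM over the 6 libraries, was below the filter and is counted apart from these. The median log2 fold change (of FPKM + 1, PCdel minus WT) was 0.32 over the 8 genes and 0.04 over all genes tested, of which 63.1% were above 0.

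**Figure D1:**
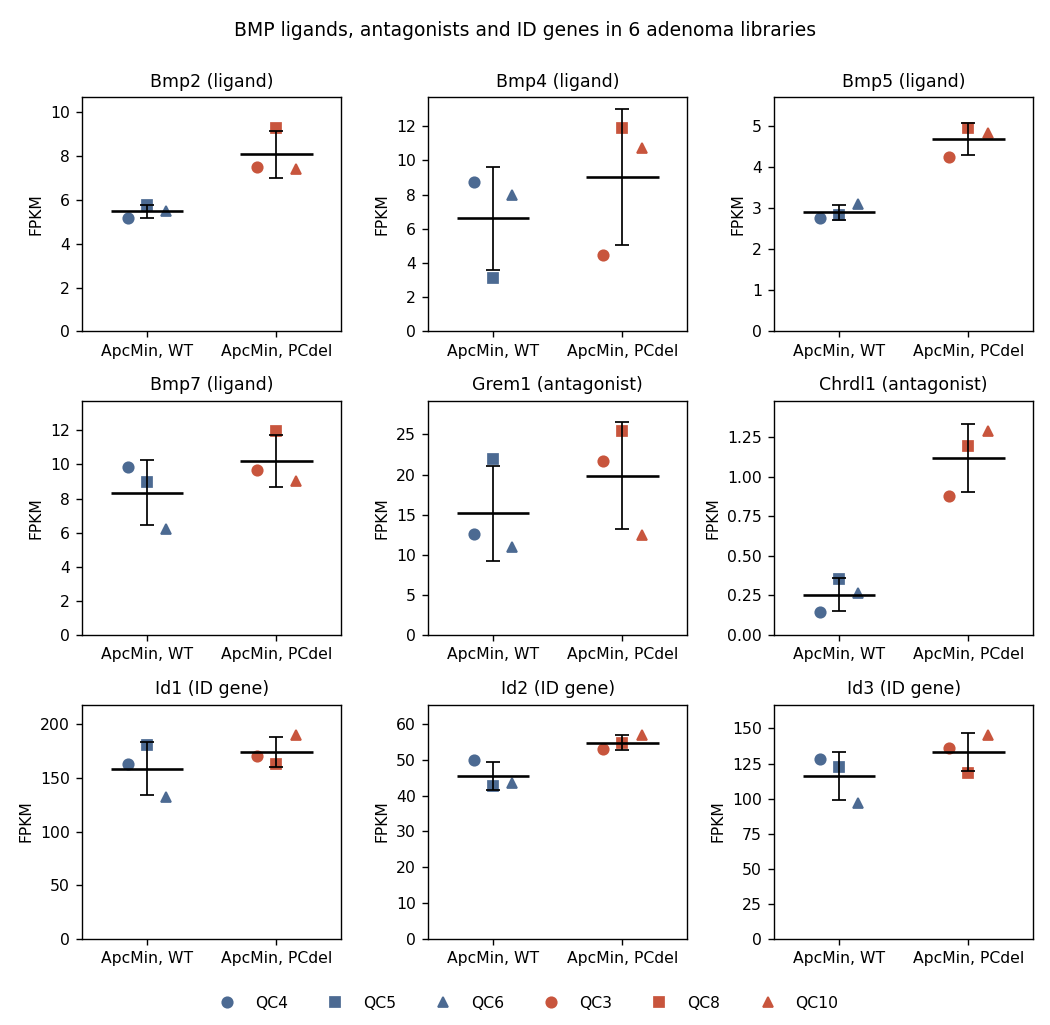
FPKM of each of the 9 genes (vertical axes from 0, own scale for each gene) in the 3 ApcMin, WT libraries (blue) and the 3 ApcMin, PCdel libraries (red). Marker shapes name the library, the horizontal line is the group mean and the error bar the SD (n = 3). The groups are apart in Bmp2, Bmp5, Chrdl1 and Id2, while in Bmp4 and Grem1 the libraries of each group spread widely.

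The ratio of read coverage to FPKM differs between genes, and a high percentile of it put the depth of the libraries between 5.407 and 5.876 gigabases. Marker genes were looked at, but with no library of normal mucosa in the series they cannot test the adenoma label. Epithelial markers summed to between 5652 and 7940 FPKM, and the intestinal stem cell and Wnt target genes to between 259.9 and 395.2 FPKM. The PC marker Lyz1 was expressed at 950.3 to 1148 FPKM in the PCdel libraries and at 1672 to 2281 FPKM in the WT libraries. A log2 fold change below 0 was seen in 8 of 8 PC marker genes, 3 of them with the groups apart. Of these genes, 0 passed the adjusted limma threshold and 5 had an unadjusted p under 0.05. Over all genes tested, 63.1% had a log2 fold change above 0, the groups were apart in 7.54%, and 3.38% had an unadjusted limma p under 0.05. WT library QC6 stood apart in its enterocyte markers, which summed to 25357 FPKM against 9424 to 15414 FPKM in the other libraries. By Xist and 4 Y-linked genes, 1 library of each group (QC6 and QC3) was male. Fewer cells of a type and less RNA per cell cannot be told apart in these bulk samples.

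The 9 genes lay on a wide scale of levels, in the same order in both genotypes. In WT adenomas, Id1 was expressed at 158.8 ± 24.7 FPKM (SD, n = 3), Id3 at 115.9 ± 17.0 FPKM and Id2 at 45.4 ± 3.95 FPKM, followed by Grem1 at 15.2 ± 5.92 FPKM. Below these came Bmp7 at 8.33 ± 1.90 FPKM, Bmp4 at 6.62 ± 3.03 FPKM, Bmp2 at 5.48 ± 0.29 FPKM, Bmp5 at 2.91 ± 0.187 FPKM and Chrdl1 at 0.254 ± 0.105 FPKM. The ranges of neighbours in this order did not overlap, except those of Bmp7 with Bmp4 and of Bmp4 with Bmp2, which overlapped in both genotypes. Id1 and Id3 were more abundant than 96.6% and 95.2% of all genes tested, and Bmp5 than 24.2%. FPKM are scaled for length, so these levels can be set side by side between genes.

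Of the ligands, Bmp5 differed most. Bmp5 encodes a ligand of the subgroup that also holds BMP6 and BMP7, and in the normal small intestine it is a product of the subepithelial mesenchyme. It lies on chromosome 9, 75775364 to 75900310 (GRCm38, plus strand). Its level was 2.77, 2.83 and 3.12 FPKM in WT adenomas and 4.25, 4.97 and 4.85 FPKM in PCdel adenomas. The lowest PCdel library was thus 1.36-fold the highest WT library. The means were 4.69 ± 0.385 FPKM (SD, n = 3) and 2.91 ± 0.187 FPKM (SD, n = 3), with p = 0.1 in an exact permutation test (two-sided), the lowest p that can be had from 3 libraries a group. Bmp5 had a log2 fold change of 0.54 (standard error 0.10, 95% interval 0.29 to 0.79), with an unadjusted limma p of 0.00143, the 20th smallest of the 14240 genes, and an adjusted p of 0.979 (limma, Benjamini-Hochberg). An annotated antisense gene, Gm26903, holds 46.2% of the 31-mers of Bmp5 transcripts and was listed at 0 in all 6 libraries, and the strand setting of the counting is not given, so that reads of the pair cannot be told apart.

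The sequences just upstream of 4 of the genes are given to show which SMAD and E-box letters lie there. They are Bmp5 and Id2, in which the genotypes were apart, and Bmp4 and Grem1, which varied widely between libraries of a genotype. Each is the part of the 250 bases before the RefSeq start site (GRCm38.p6) that lies outside the exons of the gene in GENCODE, written 5′ to 3′ on the strand of the gene. Capitals mark the GC-rich element GGCGCC bound by SMAD1 and SMAD5, the SMAD4 element CAGAC (or GTCTG on the other strand), and the E boxes CACGTG and CAGCTG bound by helix-loop-helix factors.
Bmp5: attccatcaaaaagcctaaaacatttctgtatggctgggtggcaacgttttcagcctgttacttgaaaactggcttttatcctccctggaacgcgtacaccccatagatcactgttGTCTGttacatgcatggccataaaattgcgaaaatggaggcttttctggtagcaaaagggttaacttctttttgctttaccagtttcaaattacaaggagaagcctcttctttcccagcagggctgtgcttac
Bmp4: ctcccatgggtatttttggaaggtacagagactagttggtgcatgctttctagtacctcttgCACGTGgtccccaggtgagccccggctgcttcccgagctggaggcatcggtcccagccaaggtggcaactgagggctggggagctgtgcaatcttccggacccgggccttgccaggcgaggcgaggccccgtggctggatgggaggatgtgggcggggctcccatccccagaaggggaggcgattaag
Grem1: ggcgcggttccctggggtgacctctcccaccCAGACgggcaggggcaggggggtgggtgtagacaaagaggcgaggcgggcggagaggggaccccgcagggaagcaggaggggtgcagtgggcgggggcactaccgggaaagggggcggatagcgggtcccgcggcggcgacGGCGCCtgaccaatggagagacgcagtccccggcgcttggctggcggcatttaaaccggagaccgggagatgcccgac
Id2: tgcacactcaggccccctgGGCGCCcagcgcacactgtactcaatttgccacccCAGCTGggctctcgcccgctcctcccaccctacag
The stretches are chr9:75775115-75775363 (plus strand) for Bmp5, chr14:46390670-46390919 (minus strand) for Bmp4, chr2:113758649-113758898 (minus strand) for Grem1 and chr12:25096254-25096342 (minus strand) for Id2. The GC content of the 250 bases was 42.8% for Bmp5, against 63.2% for Bmp4, 72.0% for Grem1 and 62.8% for Id2, and the median of all 32851 RefSeq promoters was 52.4%. In the same 250-base window, GGCGCC occurs in 9.59% of all promoters, CAGAC on either strand in 42.2%, CACGTG in 6.02% and CAGCTG in 13.0%. GGCGCC was present once in Id2 and once in Grem1, and these letters are not in the windows of Bmp5 and Bmp4.

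Bmp2 encodes a ligand close to BMP4, known in the gut from both mature epithelium and mesenchyme. It lies on chromosome 2, 133552159 to 133562885 (plus strand). WT adenomas had 5.18, 5.76 and 5.49 FPKM, and PCdel adenomas had 7.49, 9.28 and 7.42 FPKM. The WT libraries lay close together, and library QC8 was the highest of the 6. The means were 8.06 ± 1.06 FPKM (SD, n = 3) and 5.48 ± 0.29 FPKM (SD, n = 3), 147.3% of WT (exact permutation test, p = 0.1). Its log2 fold change was 0.48 (standard error 0.12, 95% interval 0.20 to 0.76), with an unadjusted limma p of 0.00478 and an adjusted p of 1.0.

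Bmp4, a ligand made by gut mesenchyme, varied most between libraries of the same genotype. It lies on chromosome 14, 46383520 to 46390669 (minus strand). The WT libraries had 8.71, 3.15 and 7.99 FPKM of Bmp4 and the PCdel libraries 4.46, 11.9 and 10.7 FPKM. One library of each genotype (QC3 and QC5) was far below the others, and the highest library was 3.78-fold the lowest. Its log2 fold change of 0.40 (standard error 0.44, 95% interval -0.65 to 1.44, limma adjusted p = 1.0) was smaller than this spread. Without WT library QC5 it was 0.0058, and without PCdel library QC3 it was 0.79. Bmp4 made up 15.2% and 17.2% of the summed FPKM of the 4 ligands in libraries QC5 and QC3 and 31.3% to 35.1% in the other libraries.

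By the profile over the 6 libraries, each gene centred on its mean log2(FPKM + 1), Tcf12 and Adgre1 were the closest to Bmp4 of 121 pathway and marker genes. The root mean square difference was 0.41 for Tcf12, which encodes an E protein, and 0.44 for Adgre1, a macrophage marker whose groups were apart (2.69 to 3.35 FPKM in PCdel and 1.64 to 2.33 FPKM in WT libraries), while Bmp4 itself had an SD of 0.65 and Tcf12 one of 0.24. Tcf12 had 22.2 FPKM in library QC5, its lowest, and 36.8 FPKM in library QC8, its highest, and both are also the extremes of Bmp4. In library QC3, where Bmp4 was low, Tcf12 was at 31.4 FPKM, above each WT library. No other gene of the 9 reached the SD of 0.5 set for this comparison.

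Bmp7, of the same subgroup as Bmp5, was the most abundant of the ligands, and its groups overlapped. It is on chromosome 2, 172868012 to 172940321 (minus strand). Its level was 9.83, 8.97 and 6.19 FPKM in WT adenomas and 9.69, 11.9 and 9.02 FPKM in PCdel adenomas. Library QC6 was the lowest and QC8 the highest, and the other libraries lay between 8.97 and 9.83 FPKM. The log2 fold change was 0.28 (standard error 0.18, 95% interval -0.16 to 0.72, limma adjusted p = 1.0), and 0.10 without library QC6. The 4 ligands together came to 32.0 ± 6.11 FPKM (SD, n = 3) in PCdel adenomas and to 23.3 ± 2.93 FPKM (SD, n = 3) in WT adenomas. In this sum the groups overlapped, since PCdel library QC3 at 25.9 FPKM was below WT library QC4 at 26.5 FPKM.

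Of the antagonists, Chrdl1, which encodes a chordin-like protein that binds BMPs and keeps them from their receptors, had the largest ratio of group means of the 9 genes. It lies on the X chromosome, 143285674 to 143394262 (minus strand). Expression was low, at 0.145, 0.354 and 0.265 FPKM in WT adenomas and 0.876, 1.197 and 1.29 FPKM in PCdel adenomas. The lowest PCdel library was 2.48-fold the highest WT library. The means were 1.12 ± 0.216 FPKM (SD, n = 3) and 0.254 ± 0.105 FPKM (SD, n = 3), with p = 0.1 in the exact permutation test. These are low values, resting on a mean read depth over the gene of 0.50 to 1.2 in the WT libraries and 2.86 to 4.05 in the PCdel libraries. The difference was 0.755 on the log2(FPKM + 1) scale and 1.81 with a pseudocount of 0.1 FPKM, so its size depends on the pseudocount. With no filter on low values, 27208 genes were tested, and Chrdl1 had an unadjusted limma p of 0.000486 and an adjusted p of 0.413, in a fit where 3.59% of the genes had an unadjusted p under 0.05, 0.00368% passed the adjusted threshold and 7.14% had their groups apart. No 31-mer of its transcripts occurs in another annotated gene.

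Grem1, which encodes gremlin, the antagonist of BMP2, BMP4 and BMP7 secreted by stromal cells below the crypts, was the more abundant antagonist. It lies on chromosome 2, 113746164 to 113758646 (minus strand). WT adenomas expressed it at 12.5, 21.9 and 11.0 FPKM and PCdel adenomas at 21.7, 25.4 and 12.4 FPKM. The libraries fell into a high level (QC3, QC5 and QC8) and a low level (QC4, QC6 and QC10), and both levels held libraries of each genotype. Grem1 had a log2 fold change of 0.37 (standard error 0.33, 95% interval -0.42 to 1.16, limma adjusted p = 1.0), which was 0.17 without library QC8, 0.19 without QC6 and 0.66 without QC10. Libraries QC3, QC5 and QC8 were also the highest in the collagen gene Col1a1, picked from the fibroblast list after its values were seen, at 47.6, 40.7 and 44.2 FPKM, against 36.3, 21.6 and 24.2 FPKM in QC4, QC6 and QC10. Col1a2, Col3a1, Lum and Pdgfrb of that list followed the same split. Dcn (110.5 FPKM in QC5 and 116.3 FPKM in QC10), Fbln1 (highest in QC6), Pdgfra, Dpt and Mfap5 did not. With the fibroblast marker score, which includes these genes, as a covariate, the log2 fold change of Grem1 was -0.081 (standard error 0.18). The part of fibroblasts in the level of Grem1 was not tested beyond this fit. Library QC5 had high Grem1 with the lowest Bmp4, while QC8 had high levels of both. Grem1 per summed FPKM of the 4 ligands was 0.67 ± 0.34 (SD, n = 3) in WT adenomas and 0.63 ± 0.23 (SD, n = 3) in PCdel adenomas.

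**Figure D2:**
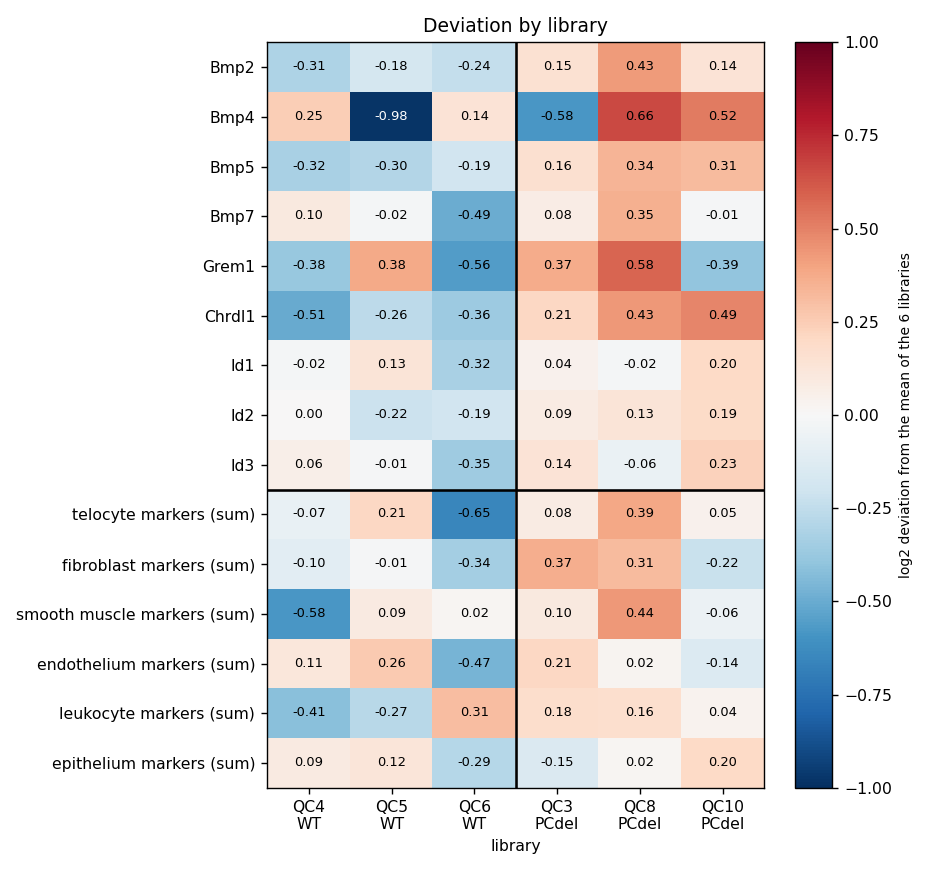
Deviation of log2(FPKM + 1) from the mean of the 6 libraries (color and printed value) for the 9 genes, with the log2 deviation of the summed FPKM of 6 marker lists below the line, by library. The deviations of Bmp2, Bmp5 and Chrdl1 are negative in the 3 WT libraries and positive in the 3 PCdel libraries, whereas those of Bmp4 are lowest in QC5 and QC3 and those of Grem1 are positive in QC5, QC3 and QC8.

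The ID genes were among the more abundant genes of the adenomas and differed little between the genotypes. Id2, on chromosome 12, 25093801 to 25096092 (minus strand), had 50.0, 42.8 and 43.6 FPKM in WT adenomas and 52.9, 54.6 and 56.9 FPKM in PCdel adenomas. The groups were apart by a small margin, the lowest PCdel library being 1.06-fold the highest WT library. The means were 54.8 ± 2.01 FPKM (SD, n = 3) and 45.4 ± 3.95 FPKM (SD, n = 3) (exact permutation test, p = 0.1). Id2 had a log2 fold change of 0.27 (standard error 0.10, 95% interval 0.02 to 0.52), with an unadjusted limma p of 0.0375 and an adjusted p of 1.0. This unadjusted p was under 0.05 in 10 of 18 alternative fits.

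Id1 and Id3, ID genes often used as readouts of BMP receptor activity and also strongly expressed in endothelium, overlapped between the genotypes. Id1, on chromosome 2, 152736251 to 152737410 (plus strand), had 163.0, 181.2 and 132.2 FPKM in WT adenomas and 170.4, 163.1 and 190.1 FPKM in PCdel adenomas. Id3, on chromosome 4, 136143497 to 136145755 (plus strand), had 128.5, 122.7 and 96.6 FPKM in WT adenomas and 136.1, 118.2 and 145.3 FPKM in PCdel adenomas. For both genes library QC10 was the highest and library QC6 the lowest. The log2 fold change was 0.14 for Id1 (95% interval -0.21 to 0.50) and 0.20 for Id3 (95% interval -0.15 to 0.56), with a limma adjusted p of 1.0 for each. Without library QC6, the library with the high enterocyte markers, these were 0.019 and 0.080, while Bmp5 had 0.58, Bmp2 0.48 and Id2 0.24. Endothelial markers summed to 79.4 to 100.9 FPKM in the PCdel libraries and to 63.1 to 104.4 FPKM in the WT libraries, and were also lowest in QC6, and their part in the levels of Id1 and Id3 was not tested. The share of each gene in the sum of the 3 ID genes was steady, with Id1 at 47.4% to 52.3%, Id3 at 35.2% to 37.9% and Id2 at 12.3% to 16.3% over the 6 libraries.

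Of 51 further genes of the pathway (ligands, antagonists, receptors, SMADs, targets and E proteins), 35 were tested, 29 with a log2 fold change above 0 and 6 below, where 63.1% of all genes tested were above 0. The groups were apart in 8 of the 35 (22.9%, against 7.54% of all genes tested), 8 of them higher, and 0 passed the adjusted limma threshold. An unadjusted p under 0.05 was reached by 2 of the 35, a share near the 3.38% of all genes tested. The median log2 fold change was 0.12 over the 35 and 0.04 over all genes tested. The share of higher genes among those with the groups apart depended on the scaling over all genes (79.6% as given here, 52.7% with quantile normalization, 51.3% with median centring and 92.5% with TPM). The counts over the 35 were not repeated with these scalings. In the 8 genes the lowest PCdel library was 1.01-fold (Smad6) to 1.115-fold (Tcf4) the highest WT library.

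Among the ligands outside the 9 genes, 4 were tested, and Bmp8b had the largest log2 fold change, 0.09, with the groups overlapping. Bmp10 and Bmp15 had at most 0.041 FPKM in any library, and Gdf2, Gdf5 and Gdf7 were listed at 0. Among the antagonists, Fstl3, a follistatin-like binder of activins and some BMPs, had its groups apart (2.58 to 3.16 FPKM in PCdel and 2.09 to 2.48 FPKM in WT libraries, log2 fold change 0.22). Nog, which encodes the antagonist noggin, had 0.048 to 0.167 FPKM over the 6 libraries. Bmper, below the filter and outside the rule for named genes, was picked after its values were seen, with 0.834 to 1.33 FPKM in PCdel and 0.541 to 0.786 FPKM in WT libraries.

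Of the receptors and co-receptors, 10 were tested and 1 had its groups apart, a share near the 7.54% of all genes tested. This was Acvr1, a type I receptor also known as ALK2, with 6.01 to 8.86 FPKM in PCdel and 5.24 to 5.79 FPKM in WT libraries. Its log2 fold change was 0.33 (95% interval -0.01 to 0.67). Bmpr1a, a type I BMP receptor whose loss causes juvenile polyposis, had 20.6 to 22.9 FPKM over the 6 libraries with the groups overlapping (log2 fold change -0.020, 95% interval -0.24 to 0.20). Bmpr1b had at most 0.062 FPKM. Of the SMADs and the ligases that mark them for degradation, 4 of 7 tested had their groups apart and were higher, as were 6% of all genes tested. These were the BMP effector Smad1 (log2 fold change 0.25, 14.5 to 16.6 FPKM against 12.5 to 13.3), the inhibitory SMADs and BMP targets Smad6 (0.26) and Smad7 (0.19), and the ligase Smurf2 (0.07). Other targets did not stand apart: Id4, Atoh8, Msx1 and Bambi had log2 fold changes from -0.05 to 0.19 with overlapping groups.

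The E proteins, which ID proteins bind, were all 3 above 0 in log2 fold change, and the groups were apart in Tcf4 and Tcf12. Of all genes tested, 63.1% were above 0 and 7.54% had their groups apart (6% higher). Tcf4 had 13.5 to 15.6 FPKM in PCdel and 9.68 to 12.1 FPKM in WT adenomas. Its log2 fold change was 0.43 with a standard error of 0.12 (limma, adjusted p = 1.0). Tcf12 was expressed at 31.4 to 36.8 FPKM and at 22.2 to 30.8 FPKM, respectively (log2 fold change 0.31).

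**Figure D3:**
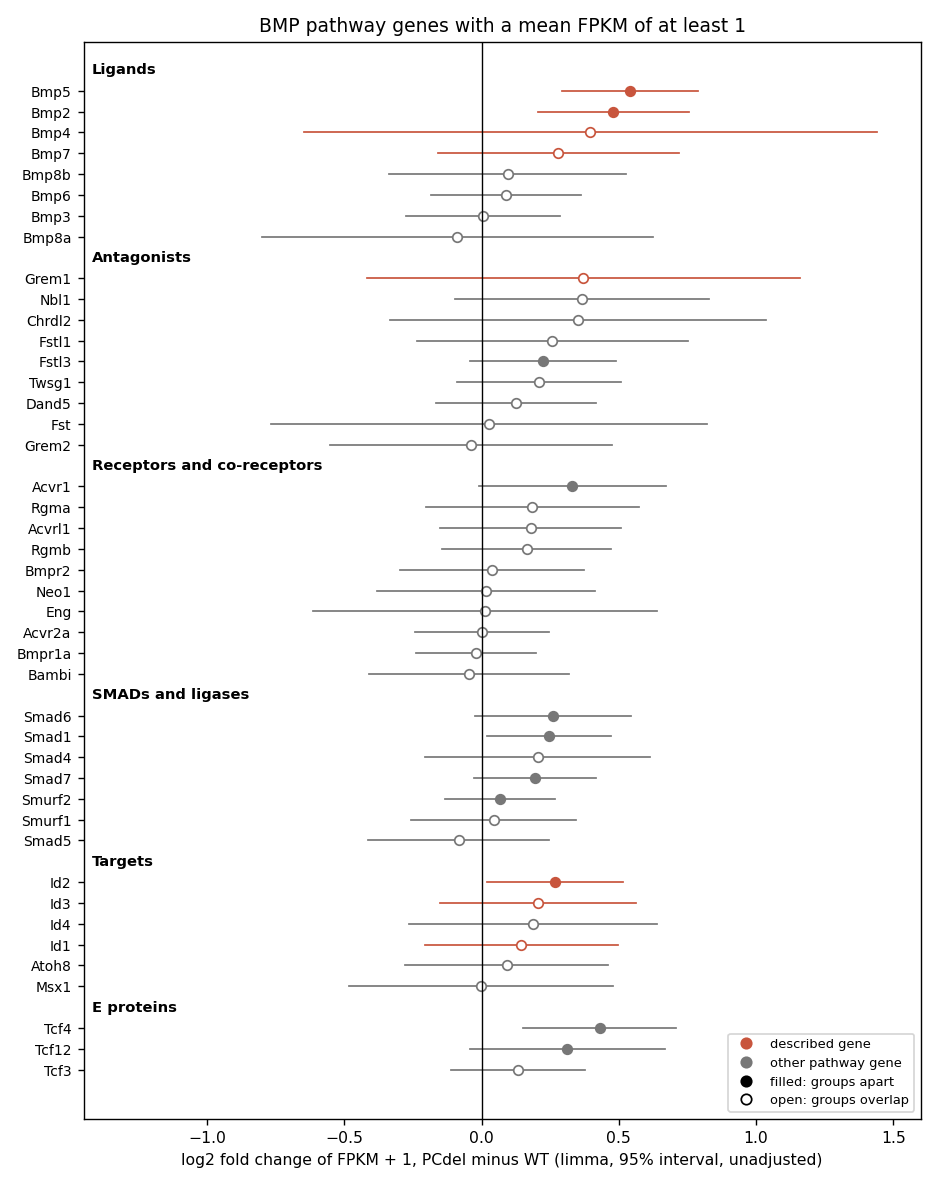
Log2 fold change of FPKM + 1 (PCdel minus WT, horizontal axis) with the unadjusted 95% interval from limma for the 43 pathway genes tested, grouped by role. Red marks the 8 described genes that were tested, grey the 35 others, and filled points the genes whose groups did not overlap. Bmp5, Bmp2, Id2, Smad1 and Tcf4 have intervals above 0, and no gene has one below 0.

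Some markers of the mesenchymal cells that are known to secrete BMP ligands had their groups apart, as Bmp2 and Bmp5 did. In the telocyte list, 7 of 8 genes were tested, 6 were above 0, and 0 passed the adjusted limma threshold (4 had an unadjusted p under 0.05). In 4 the groups were apart and higher: Foxf1 (log2 fold change 0.39), Foxf2 (0.35) and Foxl1 (0.33), transcription factors of the subepithelial mesenchyme, and the receptor gene Pdgfra (0.62), which is also on the fibroblast list. Over all genes tested, 63.1% were above 0, the groups were apart in 7.54% (6% higher), and 3.38% had an unadjusted limma p under 0.05. Gli1, below the filter, was also apart, at 0.336 to 0.391 FPKM in PCdel and 0.194 to 0.317 FPKM in WT libraries. Pdgfra had 10.9 to 15.3 FPKM in PCdel and 7.404 to 9.14 FPKM in WT libraries, and Foxl1 had 1.404 to 1.73 FPKM and 0.815 to 1.29 FPKM. Wnt5a (0.11), F3 (0.33) and Sox6 (-0.019) overlapped, as did the summed level of the list, at 76.8 to 97.5 FPKM against 47.4 to 85.9 FPKM, and none of its genes was listed at 0 in all libraries. The mean log2(FPKM + 1) of the list was apart, at 2.55 to 2.79 in PCdel and 2.28 to 2.51 in WT libraries. A fit with this mean as a covariate therefore cannot fully separate it from genotype. In that fit the log2 fold change was 0.67 for Bmp5 (limma, adjusted p = 0.469) and 0.42 for Bmp2 (limma, adjusted p = 0.636). For Bmp2 the standard error rose from 0.12 to 0.19 and the unadjusted p of limma, fitted across all genes tested, from 0.00478 to 0.0723. Of the 18 alternative fits, the unadjusted p of Bmp2 was under 0.05 in the other 17.

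Of the fibroblast list, 9 of 10 genes were tested, 8 were above 0 and Dcn and Pdgfra had their groups apart, with a summed level of 285.6 to 429.5 FPKM in PCdel and 263.3 to 330.6 FPKM in WT libraries. For this and the following lists, 63.1% of all genes tested were above 0 and 7.54% had their groups apart. Of the smooth muscle list, 10 of 10 were above 0 with the groups overlapping in each, and the summed level was 356.1 to 502.7 FPKM against 248.2 to 395.0 FPKM. The part of these cell types in the differences of Bmp2 and Bmp5 was not tested beyond the covariates, and for Chrdl1 it was not tested. Without a covariate the log2 fold change was 0.54 for Bmp5 and 0.48 for Bmp2. It was 0.58 and 0.41 with the fibroblast score as a covariate, and 0.51 and 0.40 with the smooth muscle score. The unadjusted limma p of Bmp2 was 0.019 and 0.018 in these 2 fits, against 0.00478 without a covariate. The trophocyte list, of cells below the crypt that secrete antagonists, had 4 of 5 genes tested, 3 above 0, with summed levels of 105.5 to 145.4 FPKM in PCdel and 103.9 to 132.9 FPKM in WT libraries. Leukocyte markers (7 of 9 tested, 7 above 0) summed to 41.3 to 45.5 FPKM against 30.2 to 49.9 FPKM. Markers of enteric glia and neurons stayed at a summed 2.7 FPKM or less.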

How the data were processed

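The authors deposited, for each of the 6 libraries, a table with the FPKM of each gene (scaled for gene length and library size), the TPM (scaled to the same sum in each library) and the mean read coverage, a signal not scaled to depth. Per the methods, libraries were made with the TruSeq RNA kit and sequenced on a HiSeq2500, and reads were aligned in CLC Genomics Workbench 7, followed by a normalization in MatLab whose settings are not given in the sources used here and which was not repeated. The program and annotation behind the tables are not given in the sources used here, and the positions of most of the 9 genes equal those of GENCODE M21 on GRCm38.

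Entries of one gene were summed. Genotypes were compared with limma 3.58.1 in R 4.3.3 on log2(FPKM + 1), by lmFit and then eBayes with trend. The fit held the 14240 genes that averaged 1 FPKM or more, with Benjamini-Hochberg adjustment over all of them. For single genes an exact permutation test over the libraries was run as well. Log2(FPKM + 1) understates the changes of low genes. Coverage gave the depth, as a high percentile over expressed genes of its ratio to FPKM, and read counts, floors and counting intervals were not derived. The fit was tested on simulated data. Shared 31-mers, on either strand, were searched in GENCODE M21 transcripts. RefSeq promoters were found for 5 of the 9 genes, and protein sequences were not used here.

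The 9 genes, the pathway and marker lists and the tests were chosen with earlier results of these data known. Genes of the pathway lists outside the 9 were named where their groups did not overlap or, in a list without such a gene, for the largest change. The marker lists are given by counts, and likeness was computed for genes with an SD of at least 0.5. Nog, Bmpr1a, Bmpr1b, the ligands near 0, the other targets and the marker genes given with values were added after their values were seen. Itgam, whose symbol has more than 1 identifier, was left out of the leukocyte list.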

Additional observations from a re-analysis of the deposited data

How the results depend on the processing

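Of 143 values of the 8 tested genes under 18 alternatives, 139 kept their direction, and the number of the 8 genes past the adjusted limma threshold stayed at 0 in each alternative. The covariates for telocyte markers and Y-linked genes, and the alternatives for Chrdl1 other than the fit with no filter, were chosen after seeing the data. The log2 fold change turned to -0.081 for Grem1 with the fibroblast score. With the telocyte score, itself apart by genotype, it turned to -0.44 for Grem1 and -0.18 for Bmp7. For Id1 it turned to -0.014 with array quality weights, which gave library QC6 a weight of 0.237. The cause was not tested. When single libraries were left out, the fold change lay between 0.51 and 0.60 for Bmp5, 0.39 and 0.53 for Bmp2, 0.23 and 0.34 for Id2, 0.0058 and 0.79 for Bmp4, and 0.17 and 0.66 for Grem1, and the difference of Chrdl1 between 0.69 and 0.84. The Chrdl1 difference was 1.06 with TPM and 1.81 with a pseudocount of 0.1. The count of the tested genes with the groups apart was 3 under each scaling and 3 to 4 with a library left out. Leaving out a library cannot make separated groups overlap, so the latter count could not fall below 3. The share over all genes was not computed for it. Over all genes, 2 passed the adjusted threshold, 1 with median centring, without the filter and with the smooth muscle score, 0 with the telocyte score, and 1 to 5 with a library left out (5 without WT library QC4). With 3 libraries per group the exact test cannot go below 0.1, and depth was similar in all 6. No paired analysis was run, since the sample labels name no pairs between the genotypes. A minimum mean FPKM of 5 left no value for Bmp5.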
